A study of Homo sapiens with 6 samples.

Results

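The genes described here are targets of p53, the transcription factor that answers DNA damage and other stress. The set holds 31 named genes, each standing for itself by the transcript entry with the most reads on a primary chromosome, out of 26835 genes with an entry in the deposited tables. All 31 were found, and 30 of them passed the authors' filter on low values in all 3 comparisons. The exception was SPATA18, a mitophagy gene with 1 read in each mock library and 0 reads in the other 4 libraries, which allows up to 3 reads in each of those.

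RNA was sequenced from U2OS 2-6-3 cells, a clone of the human osteosarcoma line U2OS with a reporter gene placed next to many tet operators. Sample cells were transiently transfected with plasmids for the light-dependent partners CIBN-TetR, which binds the operators, and PHR-YFP-VP16, which carries the VP16 activator, and for mCherry-MCP, a protein that marks MS2 RNA. Mock cells were transiently transfected with plasmids for TetR-RFP and YFP. Untransfected cells received neither plasmids nor transfection reagent. Each group has 2 libraries, and all 6 were kept in white light overnight, so no library shows the cells in the dark. The share of cells that took up plasmids is not given in the labels, and the labels do not state whether the 2 libraries of a group came from different cultures. The p-values therefore cover the differences among these libraries alone, and those may be technical.

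Reads summed over entries numbered 9579278 in the shallower sample library and 44594507 to 54177551 in the other 5. Values per library are read counts solved from the deposited means and divided by a size factor per library, called normalized read counts below. The 2 libraries of a group are given as deeper and shallower, because the tables do not tie them to replicate numbers. Over 10698 genes the log2 ratio of the 2 libraries had an SD of 0.32 in sample cells, 0.16 in mock cells and 0.14 in untransfected cells, so values of sample cells are the least precise. The reporter entry ECFP-SKL stood at 24794 and 23754 normalized read counts in sample cells, 63.8 and 59.3 in mock cells and 28.6 and 26.4 in untransfected cells. Of 8 osteoblast lineage markers SPARC, COL1A1 and RUNX2 were present, SP7 had 1 read and IBSP had none. Within that list RUNX2 fell to 93.1 and 132 normalized read counts in sample cells and 66.7 and 64.0 in mock cells, against 379 and 414 in untransfected cells, whereas ALPL rose to 540 and 655 in sample cells and 764 and 868 in mock cells, against 57.2 and 68.4 in untransfected cells. The list summed to 28172 and 36494 normalized read counts in sample cells, 26825 and 27800 in mock cells and 40233 and 40961 in untransfected cells. Most of the gap between the sample sums came from COL1A1, at 6105 in the deeper and 14774 in the shallower sample library. COL1A1 stood at 5574 and 5448 in mock cells and 7825 and 8117 in untransfected cells, so its shallower sample value went against the lower sums. Blood cell markers summed to 190.1 and 214 normalized read counts in sample cells, 100.7 and 124 in mock cells and 37 and 38.5 in untransfected cells, and CD3E had no reads. CD68 and HBB made up most of that sum in transfected cells. HBB stood at 103 and 61.8 in sample cells, 11.3 and 3.71 in mock cells and 1.95 and 4.28 in untransfected cells. It was called higher in sample than in mock cells by DESeq2 in the authors' deposited table (adjusted p = 0.0191). Like the reporter entry, HBB was highest in sample cells, and where its reads come from was not tested. PTPRC on the blood list went the other way from the sum, with means of 4.01 in sample, 5.97 in mock and 11.5 in untransfected cells. Its fall did not pass by DESeq2 in the authors' deposited tables (adjusted p = 0.406 for sample and 0.411 for mock cells). Epithelial markers summed to 15235 and 17458 in sample cells, 14829 and 17639 in mock cells and 13609 and 14663 in untransfected cells, with GRHL2 at no reads. The keratins KRT18 and KRT8 made up most of that sum and did not move together. KRT18 rose, with means of 9645 in sample, 9808 in mock and 5317 in untransfected cells. KRT8 was lower, with means of 6450 in sample, 6193 in mock and 7127 in untransfected cells, and was not called. ESRP1, with few reads, was also lower. CLDN4 and EPCAM on that list also went the other way from the sum: CLDN4 fell to 136 and 148 in sample cells and 123 and 105 in mock cells, against 1424 and 1492 in untransfected cells, and EPCAM to 60.2 and 57.6 in sample cells and 85.1 and 46.4 in mock cells, against 190.4 and 174 in untransfected cells. The part of these markers in the results below was not tested.

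As background, p53 is held at a low level by the ubiquitin ligase MDM2 and its partner MDM4, and damage kinases such as ATM and CHEK2 free it from them. Freed p53 binds response elements made of paired 10-base decamers and raises genes that stop the cell cycle, repair DNA, alter metabolism or kill the cell, and it raises MDM2 itself, which closes a feedback loop. U2OS cells lack the MDM2 inhibitor ARF and have a truncated, overactive form of the p53 phosphatase PPM1D. CDKN2A, the gene of ARF, had 0 reads in all 6 libraries, which allows up to 3 reads in each.

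Response elements near the start of a gene are a sequence feature that p53 targets may share. Windows from 250 bases before to 50 bases after each annotated start were therefore searched on both strands for the p53 consensus decamer. RefSeq windows on GRCh38.p14 matched 25 of the 31 genes, in 36 windows. FBXO22, GADD45A, RRM2B, TP53INP1, TNFRSF10B and PHLDA3 had no window. A decamer without mismatch was present in 6 of the 36 windows, which belong to 6 genes, and in 6.65% of all 34796 windows. A pair of decamers at most 13 bases apart with at most 2 mismatches in all was present in 6 of the 36 windows, which belong to 5 genes, and in 2.93% of all windows. The matches are shown because the genes that hold them went both ways below; capitals mark the decamers, and lower-case letters are the bases between and around them.
AEN, chr15:88621306-88621325, plus strand: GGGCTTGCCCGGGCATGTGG
FAS, chr10:88991309-88991328, plus strand: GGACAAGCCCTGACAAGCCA
PLK2, chr5:58460179-58460248, minus strand: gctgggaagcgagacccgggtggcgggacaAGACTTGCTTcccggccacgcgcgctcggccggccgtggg
DDB2, chr11:47214979-47214999, plus strand: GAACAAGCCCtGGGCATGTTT
FDXR, chr17:74872996-74873025, minus strand: GGGCGGGCCCgggcaggagcGGGCTTGCCC
SESN1, chr6:109008998-109009067, minus strand: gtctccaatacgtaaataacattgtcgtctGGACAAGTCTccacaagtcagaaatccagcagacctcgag
MDM2, chr12:68808893-68808972, plus strand: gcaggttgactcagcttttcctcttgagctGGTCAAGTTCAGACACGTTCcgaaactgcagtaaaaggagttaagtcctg
The MDM2 element lies before the downstream of its annotated starts, the promoter known to answer p53. PLK2 and SESN1 held a single decamer without mismatch, and DDB2 a pair without mismatch, 5 to 25 bases past an annotated start. Such a match is a description of letters and does not show binding. Sequence outside the windows was not searched, so the lack of a match does not show that a gene has no element.

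In mock cells, which received the control plasmids, p53 target genes differed from untransfected cells both ways. The reagent, the plasmid DNA and the proteins made from it cannot be told apart in this comparison. In mock against untransfected cells 10 of the 30 tested genes rose and 13 fell, at an adjusted p under 0.05 from DESeq2 in the authors' deposited table. Of all 17081 genes tested there, 50.9% were called, 27.5% higher and 23.4% lower. Counting only genes whose mean reached 100 normalized read counts, 22 of 29 p53 targets and 62.7% of all genes were called. Limma-voom, run on the recovered counts, called 10 of 30 higher and 13 lower, and 59.0% of all genes. The median log2 fold change of the 30 was -0.09 in the authors' deposited table, against 0.00 over all genes tested there, so the set did not move one way. Its median size, ignoring the sign, was 0.74, against 0.42 over all genes, on the same log2 scale of the authors' deposited table. Deposited log2 fold changes are shrunk toward 0, more for genes with few reads, so these medians are not on equal terms. In bulk RNA such as this, fewer cells with a transcript and less of it per cell cannot be told apart. With library totals in place of median-of-ratios size factors in limma-voom, the median of all genes moved from 0.00 to -0.13 on the log2 scale, and the split of called p53 targets from 10 higher and 13 lower to 7 and 15. Values below are relative to the median-of-ratios scale. How many of all genes keep transfected and untransfected libraries apart was not counted. Such gaps below are therefore not read as particular to p53 targets.

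**Figure D1:**
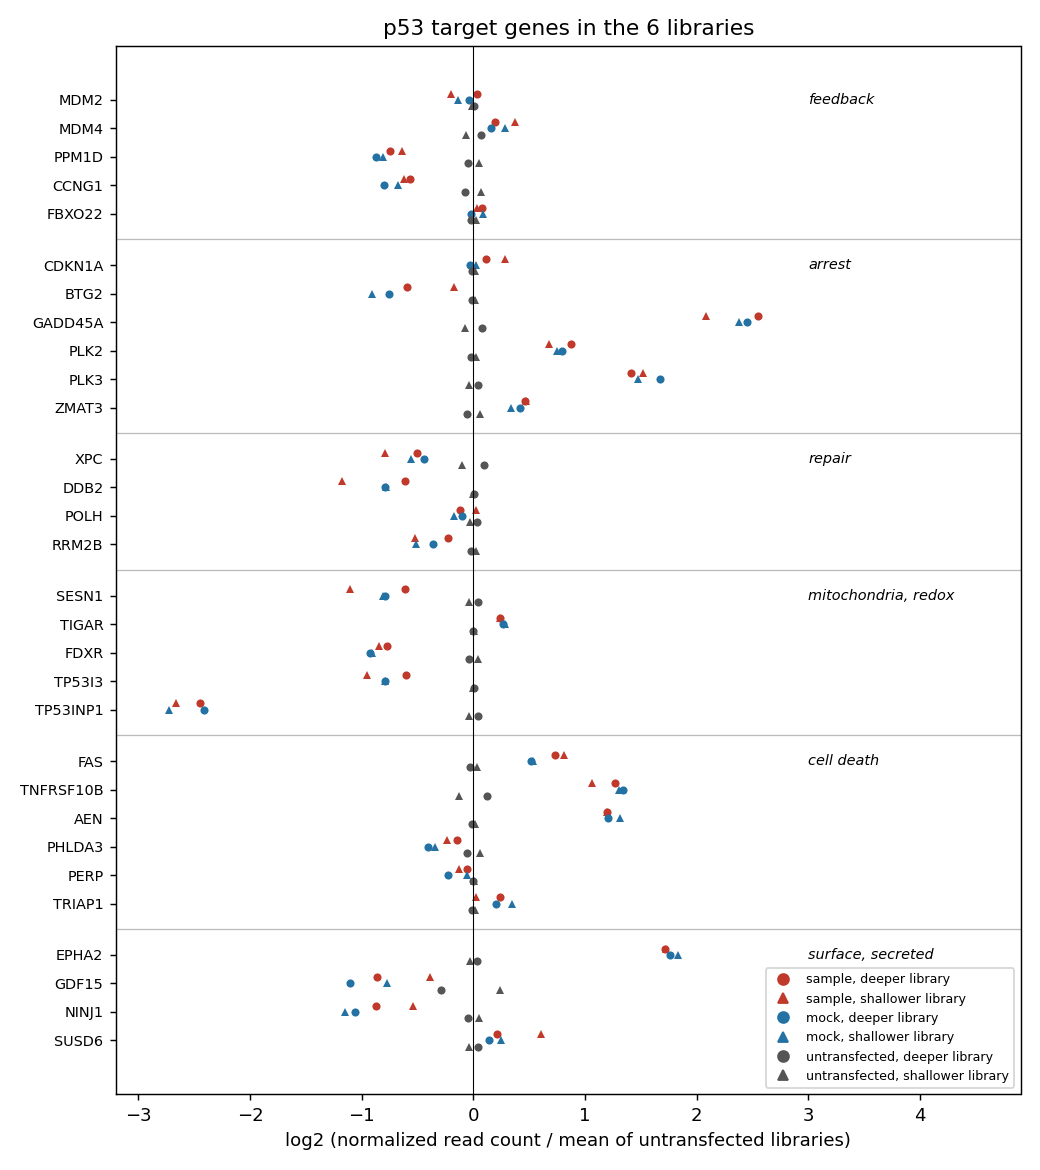
Each point is 1 library, placed by the log2 ratio of its normalized read count to the mean of the 2 untransfected libraries, for the 30 p53 target genes with a test, grouped by role. GADD45A, EPHA2, PLK3, TNFRSF10B and AEN lie to the right in all 4 transfected libraries and TP53INP1 to the left, whereas CDKN1A, MDM2 and FBXO22 lie near 0.

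Sample cells, which received the light-controlled plasmids, were likewise set against untransfected cells. In this comparison 8 of 30 genes rose and 10 fell, going by DESeq2 in the authors' deposited table, where 37.3% of 15558 genes were called, 20.2% higher and 17.1% lower. Counting only genes whose mean reached 100 normalized read counts, 18 of 29 p53 targets and 45.1% of all genes were called. Limma-voom called 9 of 30 higher and 11 lower, and 50.6% of all genes, and with library totals as depth it called 8 higher and 13 lower. The median log2 fold change was -0.06 for the set and 0.00 for all genes in the authors' deposited table. All 18 genes called here were also called in mock cells and had the same sign there. Both comparisons use the same untransfected libraries, so this overlap is not independent. The same overlap was not counted over all genes, so it is not read as particular to this set. BTG2, GDF15, PHLDA3, TIGAR and TRIAP1 were called in mock cells but not in sample cells in the authors' deposited tables. Whether the size of their change differs is given by the sample and mock comparison at the end. Of these 5, limma-voom over all libraries called BTG2 (-0.50, adjusted p = 0.00961) and TIGAR (0.22, adjusted p = 0.0486) in sample cells. Without the shallower sample library limma-voom called 4 of these 5 in sample cells as well: BTG2 (-0.59, adjusted p = 0.000708), GDF15 (-0.81, adjusted p = 0.0453), TIGAR (0.24, adjusted p = 0.0353) and TRIAP1 (0.24, adjusted p = 0.0466). Without the deeper sample library TRIAP1 stood at 0.01 (adjusted p = 0.961). CDKN1A, FBXO22, MDM2, MDM4, PERP, POLH and SUSD6 were called in neither.

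**Figure D2:**
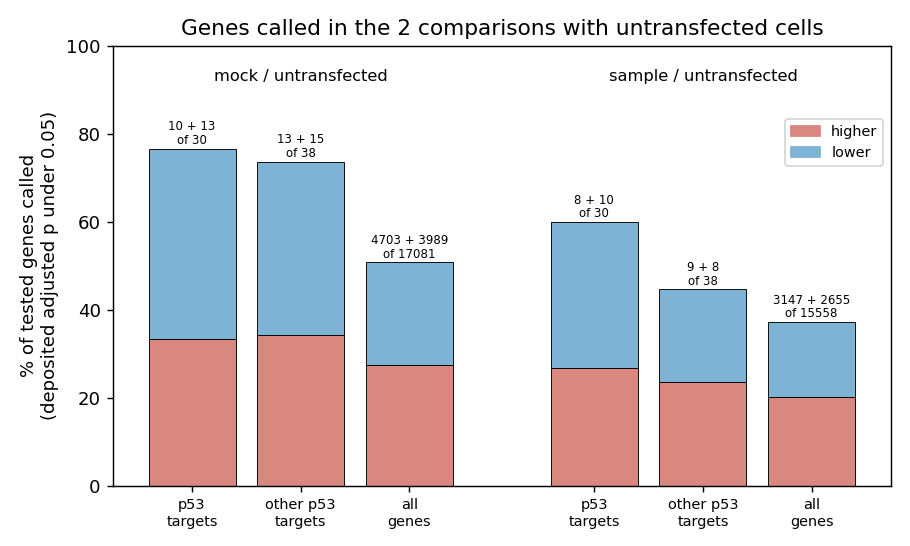
Bars give the percentage of tested genes called higher and lower, by the deposited adjusted p, for the 30 p53 targets, for a second list of p53 targets and for all genes, with the counts above each bar. Among the 30 p53 targets 10 were higher and 13 lower in mock cells, and 8 were higher and 10 lower in sample cells.

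None of the 5 feedback genes of p53 was called higher in the authors' deposited tables, and 2 fell in each comparison with untransfected cells (40% called, against 37.3% of all genes in sample cells and 50.9% in mock cells). MDM2 stood at 4750 and 4043 normalized read counts in sample cells, 4526 and 4221 in mock cells and 4674 and 4613 in untransfected cells. Both mock libraries lay below the untransfected ones and the 2 sample libraries lay on either side of them, and its log2 fold changes were -0.07 (SE 0.12, adjusted p = 0.684) for sample and -0.07 (SE 0.07, adjusted p = 0.465) for mock against untransfected cells in the authors' deposited table. The MDM2 entry that begins at the downstream start, where the decamers printed above lie, read 4241 and 3562 in sample cells, 4019 and 3761 in mock cells and 4153 and 4113 in untransfected cells. Both entries end at the same base and overlap, so the 2 promoters were not measured apart. MDM4 had 1020 and 1157 normalized read counts in sample cells, 999 and 1091 in mock cells and 935 and 854 in untransfected cells, with log2 fold changes of 0.26 (adjusted p = 0.162) for sample and 0.24 (adjusted p = 0.0522) for mock cells in the authors' deposited table. Every transfected library was above both untransfected ones for MDM4, without passing the threshold.

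PPM1D, the phosphatase that removes activating marks from p53 and its kinases, fell to 1817 and 1952 normalized read counts in sample cells and to 1661 and 1745 in mock cells, against 2949 and 3152 in untransfected cells. Its log2 fold changes were -0.69 (SE 0.12, adjusted p = 5.15e-08) for sample and -0.82 (SE 0.08, adjusted p = 1.34e-21) for mock cells in the authors' deposited table. CCNG1, the cyclin G1 that brings a phosphatase to MDM2, fell to 8270 and 8013 in sample cells and 7042 and 7710 in mock cells, against 11691 and 12902 in untransfected cells. For both genes no transfected library reached the lower untransfected one. FBXO22, a substrate receptor of a ubiquitin ligase, ranged from 1515 to 1634 normalized read counts over all 6 libraries and was not called.

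Of 6 cell-cycle arrest genes 4 rose in sample cells and 4 rose and 1 fell in mock cells, where 20.2% of all genes were called higher in sample cells and 27.5% in mock cells. GADD45A, a stress sensor that blocks entry into mitosis, at chr1:67685177-67688338 on hg38, rose to 3326 and 2396 normalized read counts in sample cells and 3097 and 2954 in mock cells, against 597 and 537 in untransfected cells. That is 5.04-fold for sample and 5.33-fold for mock cells in the ratio of group means. The log2 fold changes were 2.27 (SE 0.17, adjusted p = 3.12e-38) and 2.41 (SE 0.09, adjusted p = 2.28e-145) in the authors' deposited table, ranks 79 of 15558 and 108 of 17081 genes from the top. CDKN1A, which codes for the CDK inhibitor p21 and is the best known p53 target, at chr6:36678710-36687339, stood at 4990 and 5612 in sample cells, 4510 and 4678 in mock cells and 4555 and 4653 in untransfected cells. Mock and untransfected libraries overlapped, with a log2 fold change of 0.01 (SE 0.07, adjusted p = 0.887) in the authors' deposited table, and limma-voom gave a 95% interval of -0.19 to 0.15. Both sample libraries were above the other 4, with a log2 fold change of 0.20 (SE 0.11, adjusted p = 0.153) against untransfected cells in the authors' deposited table. Limma-voom over all libraries did not call CDKN1A in sample against untransfected cells (0.17, adjusted p = 0.096). The estimate was 0.27 without the deeper sample library, a value that rests on the shallowest library, and 0.12 without the shallower one.

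The Polo-like kinases of the stress response rose. PLK3 stood at 601 and 646 normalized read counts in sample cells and 718 and 626 in mock cells, against 232 and 219 in untransfected cells, with log2 fold changes of 1.41 (SE 0.19, adjusted p = 2.08e-12) for sample and 1.57 (SE 0.14, adjusted p = 1.73e-26) for mock cells in the authors' deposited table. PLK2 stood at 5276 and 4603 in sample cells and 4979 and 4817 in mock cells, against 2823 and 2924 in untransfected cells. For both kinases the lowest transfected library was above the highest untransfected one. ZMAT3, a zinc finger protein that binds RNA and regulates splicing, rose, with 0.46 (adjusted p = 0.00171) for sample and 0.39 (adjusted p = 0.000103) for mock cells as log2 fold changes from DESeq2 in the authors' deposited table. BTG2, an antiproliferative gene, went the other way, with 460 and 618 normalized read counts in sample cells, 411 and 370 in mock cells and 689 and 704 in untransfected cells. Its fall passed in mock cells (log2 fold change -0.80, adjusted p = 2.59e-09) and not in sample cells (-0.39, adjusted p = 0.0933) in the authors' deposited table. With limma-voom BTG2 passed in sample cells too (-0.50, adjusted p = 0.00961), but not without the deeper sample library (-0.18, adjusted p = 0.392) or without the shallower untransfected one (-0.48, adjusted p = 0.0546).

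**Figure D3:**
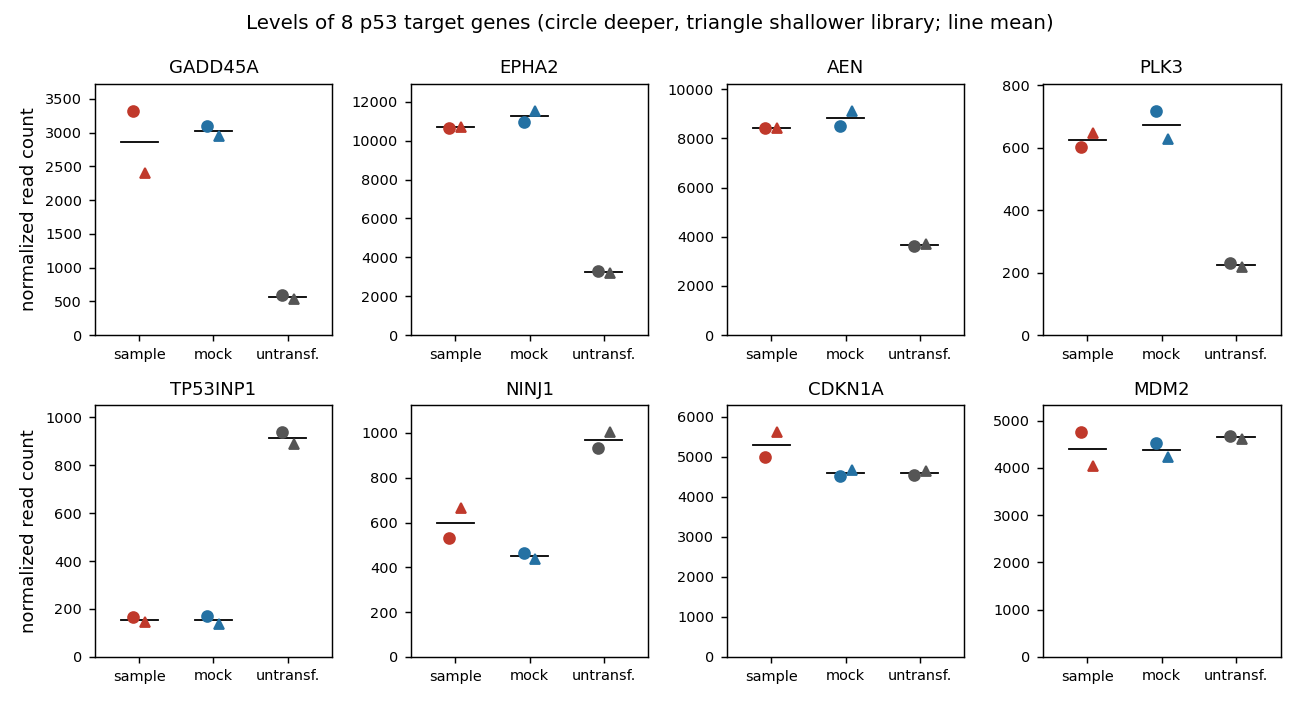
Normalized read counts of 8 p53 targets in sample, mock and untransfected cells, with 1 point per library (circle deeper, triangle shallower) and a line at the mean of 2; each axis begins at 0. GADD45A, EPHA2, AEN and PLK3 are higher in all transfected libraries, TP53INP1 and NINJ1 are lower, and CDKN1A and MDM2 differ little between groups.

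Of 4 DNA repair genes 3 fell in each comparison with untransfected cells and none rose, where 17.1% of all genes were called lower in sample cells and 23.4% in mock cells. DDB2, the damage-recognition subunit of nucleotide excision repair, stood at 657 and 445 normalized read counts in sample cells and 581 and 586 in mock cells, against 1012 and 1001 in untransfected cells. The log2 fold changes were -0.80 (SE 0.19, adjusted p = 0.000226) for sample and -0.76 (SE 0.11, adjusted p = 2.35e-11) for mock cells in the authors' deposited table. The 2 sample libraries differed more for DDB2 than for any other of the 30 genes, by 0.56 on the log2 scale, and both lay below the untransfected ones. XPC, which works with DDB2 to find damage, stood at 1082 and 885 in sample cells and 1131 and 1039 in mock cells, against 1638 and 1430 in untransfected cells. RRM2B, the p53-induced subunit of ribonucleotide reductase, fell by log2 fold changes of -0.35 (adjusted p = 0.0193) in sample and -0.42 (adjusted p = 6.47e-07) in mock cells in the authors' deposited table. Its call in sample cells was lost in limma-voom when either untransfected library was left out (-0.37, adjusted p = 0.061, without the deeper and -0.33, adjusted p = 0.0882, without the shallower). POLH, a polymerase that copies past damaged bases, ranged from 1347 to 1546 normalized read counts over the 6 libraries and was not called.

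Of 5 mitochondrial and redox genes tested, 4 fell in both comparisons with untransfected cells, against the same 17.1% and 23.4% of all genes called lower in sample and mock cells. TP53INP1, which promotes cell death and autophagy under stress, had the largest fall of the set, to 167 and 144 normalized read counts in sample cells and 172 and 138 in mock cells, against 937 and 887 in untransfected cells. The untransfected mean was 5.87-fold that of sample and 5.89-fold that of mock cells. The log2 fold changes were -2.42 (SE 0.20, adjusted p = 5.04e-33) and -2.49 (SE 0.14, adjusted p = 3.81e-64) in the authors' deposited table, ranks 105 of 15558 and 211 of 17081 from the bottom. FDXR, the ferredoxin reductase of mitochondria, stood at 1816 and 1729 in sample cells and 1637 and 1658 in mock cells, against 3015 and 3202 in untransfected cells. TP53I3, a quinone oxidoreductase, stood at 1342 and 1058 in sample cells and 1184 and 1180 in mock cells, against 2052 and 2038 in untransfected cells. SESN1, a sestrin that restrains mTORC1, had 348 and 247 in sample cells and 308 and 303 in mock cells, against 548 and 518 in untransfected cells. For these 4 genes every transfected library lay below both untransfected ones, and the share of all genes with such a gap was not counted. TIGAR, a phosphatase that lowers glycolytic flux, stood at 1168 and 1169 in sample cells and 1191 and 1206 in mock cells, against 990 and 994 in untransfected cells. Its rise was called in mock cells (log2 fold change 0.29, adjusted p = 0.00719) and not in sample cells (0.23, adjusted p = 0.181) in the authors' deposited table. Limma-voom over all libraries called the rise in sample cells too (0.22, adjusted p = 0.0486). In limma-voom the mock call was lost on leaving out any 1 of the 4 libraries (adjusted p from 0.0561 to 0.0945).

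Of 6 genes of cell death 3 rose in sample cells, with none lower, and 4 rose in mock cells, with 1 lower. The share called in sample cells was 50%, against 37.3% of all genes and 45.1% of those with a mean of at least 100. In mock cells it was 83.3%, against 50.9% of all genes and 62.7% of those with a mean of at least 100. TNFRSF10B, the TRAIL death receptor DR5, stood at 4721 and 4105 normalized read counts in sample cells and 4965 and 4843 in mock cells, against 2133 and 1792 in untransfected cells. Its log2 fold changes were 1.15 (SE 0.14, adjusted p = 5.55e-16) for sample and 1.33 (SE 0.09, adjusted p = 1.85e-48) for mock cells in the authors' deposited table. AEN, a nuclease that acts in apoptosis, at chr15:88621296-88632281, stood at 8423 and 8429 in sample cells and 8497 and 9129 in mock cells, against 3639 and 3715 in untransfected cells. That is 2.29-fold for sample and 2.40-fold for mock cells in the ratio of group means, with no overlap between transfected and untransfected libraries. FAS, the death receptor for FAS ligand, had 479 and 506 in sample cells and 414 and 419 in mock cells, against 283 and 296 in untransfected cells, with log2 fold changes of 0.73 (adjusted p = 0.00073) and 0.53 (adjusted p = 0.000902) in the authors' deposited table. TRIAP1, an inhibitor of apoptosis, was called in mock cells (log2 fold change 0.29, adjusted p = 0.0114) and not in sample cells (0.14, adjusted p = 0.49) in the authors' deposited table. Without the shallower mock library TRIAP1 was not called in limma-voom (0.18, adjusted p = 0.196), nor without the deeper (adjusted p = 0.16) or the shallower untransfected library (adjusted p = 0.127). PHLDA3, an inhibitor of AKT, went the other way, with log2 fold changes of -0.19 (adjusted p = 0.224) in sample and -0.36 (adjusted p = 7.97e-05) in mock cells in the authors' deposited table. PERP, a membrane protein of desmosomes linked to apoptosis, ranged from 523 to 615 normalized read counts over the 6 libraries and was not called.

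Among surface and secreted products EPHA2 rose most. This ephrin receptor, at chr1:16124337-16156087, stood at 10663 and 10706 normalized read counts in sample cells and 10978 and 11552 in mock cells, against 3321 and 3170 in untransfected cells. Its log2 fold changes were 1.70 (SE 0.10, adjusted p = 2e-66) for sample and 1.81 (SE 0.07, adjusted p = 4.95e-144) for mock cells in the authors' deposited table. NINJ1, a membrane protein that ruptures the plasma membrane of dying cells, fell to 529 and 667 in sample cells and 463 and 437 in mock cells, against 934 and 1003 in untransfected cells. The 3 groups did not overlap for NINJ1, with sample cells between the other groups. GDF15, a secreted stress cytokine, was the least read of the 30 genes, with 44.6 and 61.8 normalized read counts in sample cells, 37.6 and 47.3 in mock cells and 66.3 and 95.5 in untransfected cells. Its fall was called in mock cells (log2 fold change -0.82, SE 0.33, adjusted p = 0.0243) and not in sample cells (-0.54, SE 0.39, adjusted p = 0.299) in the authors' deposited table. In limma-voom its call in mock cells was lost without the deeper mock library (adjusted p = 0.131) or without the shallower untransfected one (adjusted p = 0.0965). SUSD6, a membrane protein that p53 induces after damage, stood at 448 and 589 in sample cells, 427 and 461 in mock cells and 399 and 377 in untransfected cells, with log2 fold changes of 0.37 (adjusted p = 0.141) for sample and 0.21 (adjusted p = 0.219) for mock cells in the authors' deposited table. Limma-voom over all libraries did not call SUSD6 in sample cells (0.29, adjusted p = 0.0967). The estimate was 0.59 without the deeper sample library, a value that rests on the shallowest library, and 0.21 without the shallower one.

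Set against the decamers printed above, the genes whose windows held one without mismatch went both ways. AEN, FAS and PLK2 rose in both comparisons with untransfected cells, whereas DDB2, FDXR and SESN1 fell in both. MDM2, with a pair of decamers that has 2 mismatches, was called in neither.

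Other genes of the pathway were taken from 2 further lists. Of 40 other p53 targets 38 were tested, and 13 rose and 15 fell in mock cells, while 9 rose and 8 fell in sample cells, against untransfected cells in the authors' deposited tables. That is 44.7% called in sample cells, against 37.3% of all genes, and 73.7% in mock cells, against 50.9% of all genes. Taking the 4 called genes with the largest rise in each comparison, which gave 5 in all, these were PMAIP1, the BH3-only protein NOXA, with 2935 and 2359 normalized read counts in sample cells and 3076 and 3260 in mock cells, against 1473 and 1410 in untransfected cells, and INPP1 (log2 fold changes 1.04 and 1.03 for sample and mock cells), SERTAD1 (0.76 and 1.03), KITLG (0.57 and 0.72) and DRAM1 (0.72 and 0.56) in the authors' deposited tables. BBC3, the BH3-only protein PUMA, fell where PMAIP1 rose, with 387 and 296 in sample cells and 327 and 288 in mock cells, against 595 and 619 in untransfected cells. BAX, the pore former that both act on, stood at 2323 and 2125 in sample cells, 2147 and 2146 in mock cells and 2239 and 2138 in untransfected cells and was not called. The 4 with the largest fall in each comparison, again 5 in all, were TRIM22 (log2 fold changes -1.51 and -1.91 for sample and mock cells), ENC1 (-1.31 and -1.02), FAM210B (-1.02 and -1.04), CYFIP2 (-0.65 and -1.02) and APAF1, the apoptosome scaffold (-0.79 and -0.85), in the authors' deposited tables.

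Of 20 genes on a list of pathway regulators 19 were tested, and 7 rose and 3 fell in mock cells, while 3 rose and 1 fell in sample cells. That is 52.6% called in mock cells, against 50.9% of all genes, and 21.1% in sample cells, against 37.3% of all genes, so the share was near the background or under it. USP7, which removes ubiquitin from MDM2 and p53, rose with log2 fold changes of 0.65 and 0.73 for sample and mock cells, and the kinase CHEK2 fell with -0.55 and -0.60, in the authors' deposited tables.

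Sample against mock cells, which set the light-controlled plasmids against the control plasmids, showed no called difference in these genes. None of the 30 was called by DESeq2 in the authors' deposited table, where 0.0655% of 15278 genes were, 0.00655% higher and 0.0589% lower. The higher share was 1 gene, HBB of the blood list. At an unadjusted p under 0.05 the authors' deposited table listed BTG2 alone of the 30 (DESeq2 p = 0.0468), against 1.94% of all genes. Limma-voom also called 0 of 30 and 0 of 14884 genes (0.0%), and at an unadjusted p under 0.05 it listed 4 of 30, against 4.33% of all genes. The deposited log2 fold changes of this table are shrunk toward 0 and ran from -0.11 to 0.25 in the authors' deposited table, whereas limma-voom, which does not shrink them, gave -0.14 to 0.34.

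The limma-voom 95% interval lay within a 1.5-fold difference either way for 27 of the 30 genes, among them GADD45A (-0.31 to 0.26 on the log2 scale), EPHA2 (-0.23 to 0.08), TP53INP1 (-0.35 to 0.46), CDKN1A (0.01 to 0.37) and MDM2 (-0.17 to 0.23). The other 3 were BTG2 (0.02 to 0.65), NINJ1 (0.03 to 0.60) and GDF15 (-0.52 to 0.95). How many of all fitted genes had such an interval was not counted, so the count is not read as particular to p53 targets. The intervals use a variance pooled over all 3 groups, so they may be too narrow for sample cells, whose libraries spread most. Intervals that left out 0 belonged to BTG2, NINJ1, PHLDA3 and CDKN1A, all toward higher values in sample cells, and none passed adjustment (adjusted p = 0.96 each). For the genes called in mock cells alone, TIGAR differed between sample and mock cells by -0.04 (-0.22 to 0.15) and TRIAP1 by -0.09 (-0.31 to 0.14). When the deeper sample library was left out, BTG2 passed in limma-voom as higher in sample than in mock cells (log2 fold change 0.66, adjusted p = 0.0384), and that value rests on the shallowest library.

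**Figure D4:**
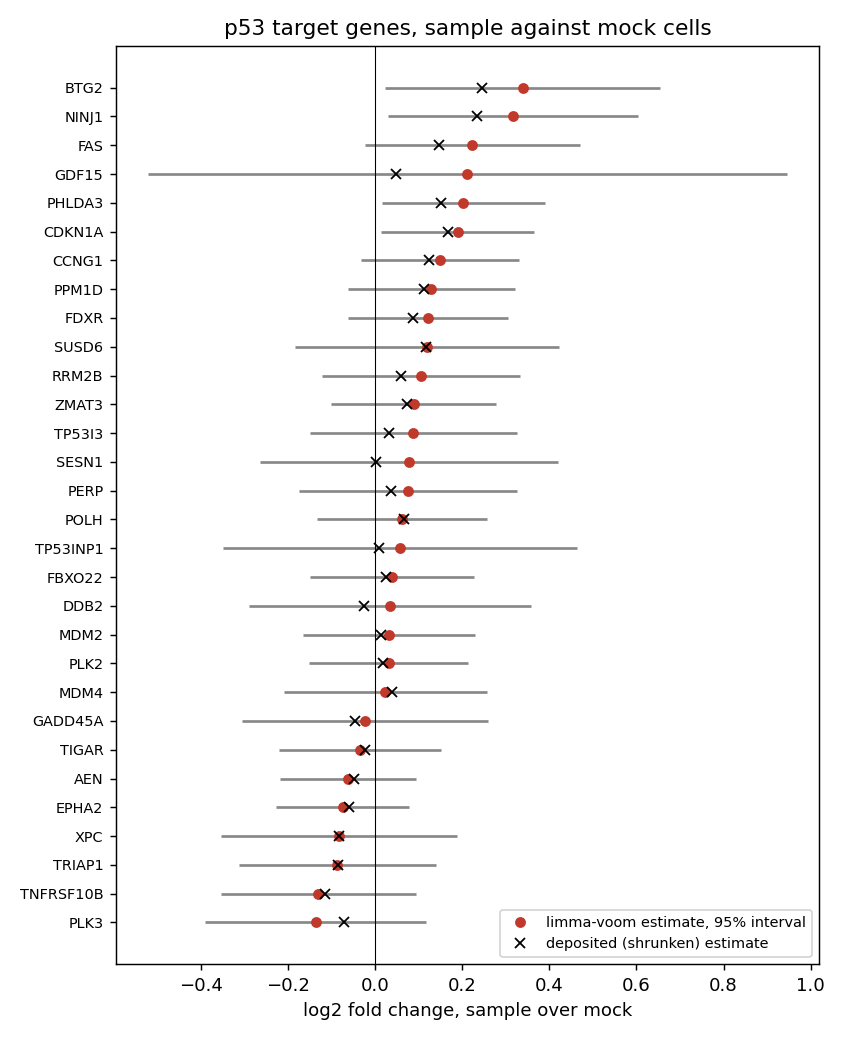
For each of the 30 p53 targets the point and line give the limma-voom log2 fold change of sample over mock cells with its 95% interval, and the cross gives the authors' deposited, shrunken value. The estimates lie between -0.14 and 0.34, with BTG2 and NINJ1 highest.

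Transcript entries of the same gene gave the same calls. The set had 44 entries with reads, and 9 genes had more than 1. In all 18 pairs of such a gene and a comparison with untransfected cells, every entry fell on the same side of the threshold, although overlapping entries of a gene can share reads. FBXO22 had the widest gap, with log2 fold changes of 0.05 and 0.17 in mock cells, neither called, in the authors' deposited table. Exons of CDKN1A, MDM2, PLK3, SESN1, TNFRSF10B, TP53I3 and XPC overlap those of an antisense gene in GENCODE 29, and whether the counting used strand is not given in the sources used here, so some of their reads may belong to the partner. MDM2, PHLDA3 and TIGAR also overlap exons of another annotated gene on the same strand.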

How the data were processed

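The 6 libraries were grouped by the transfection in the labels, 2 per group. The submitters' processing notes name Bowtie, STAR, DESeq2 and hg38 without a role or version, and how reads were counted is not given in the sources used here. Per the file headers the 3 deposited tables have 40029 transcript entries. Their columns are the authors' mean signal over 4 libraries (normalized counts), the log2 fold change and its error, a Wald score, and a p-value before and after adjustment. Calls are the authors' own at an adjusted p under 0.05.

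Because a deposited mean adds up whole counts, each scaled by its library's size factor, lattice reduction over the 3 tables gave the counts per library. For all 30527 entries with reads the counts returned the deposited means to a relative 1e-14, and the steps were tested on simulated data. Symbols came from a RefSeq gene table and GENCODE 29 for 39720 entries (99.2%). The recovered counts gave levels per library, scaled by median-of-ratios size factors, and a limma-voom fit (limma 3.58.1, R 4.3.3) over all genes with a mean of at least 10, with Benjamini-Hochberg adjustment. edgeR was not run, because the tables hold no raw counts. Promoter windows came from RefSeq on GRCh38.p14, the build of which hg38 is the primary assembly. Named genes were all 31 targets and the 4 called genes with the largest change in each direction and comparison with untransfected cells of a second target list; others of the lists were named after their values were seen, and 1 further gene of the rule is not reported here. The genes and lists were chosen with earlier results of these data known. Intervals use a variance per gene pooled over all 6 libraries and drawn toward that of other genes. They do not measure the spread of the 2 libraries of a group alone. Python 3.11.15, numpy 2.4.6, pandas 2.3.3 and matplotlib 3.10.9 were used.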

Additional observations from a re-analysis of the deposited data

How the results depend on the processing

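The counts of p53 targets called higher and lower in each comparison stayed within 1.5 times their reported values under every alternative run (thresholds of 0.01 and 0.1, means of at least 10 and 100, no filter, centring, a minimum log2 fold change of 0.5, the entry with the smallest p-value and limma-voom in 3 forms), with the exception of leaving out 1 library. There, the count higher in sample against mock cells ran from 0 to 1, the 1 being BTG2. The minimum mean of 100, limma-voom at a mean of 50 and library totals were chosen after seeing the data. Of 23 calls in mock cells 16 held under every alternative, and of 18 in sample cells 16 did; no called gene changed sign. With library totals as depth the limma-voom median of all genes in sample against untransfected cells moved to -0.12 on the log2 scale, and ZMAT3, TIGAR and TRIAP1 were no longer called in mock cells. POLH and PERP were then called lower in mock cells, and BTG2, PHLDA3 and GDF15 in sample cells. No paired analysis was possible because the tables do not tie libraries to replicate numbers. With 2 libraries a group, and one sample library far shallower than the rest, small differences may have been missed, above all in comparisons with sample cells.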

Other observations

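The sample libraries disagreed on some p53 co-factors and targets outside the 31 genes, chosen after their values were seen. The acetyltransferase genes CREBBP and EP300 had 914 and 2195, and 1093 and 2141, normalized read counts in the deeper and shallower sample libraries, against 972 and 1039, and 1164 and 1093, in mock cells and 1036 and 1100, and 1083 and 1215, in untransfected cells. PML, a nuclear body gene, had 251 and 659 in sample cells, 292 and 238 in mock cells and 226 and 259 in untransfected cells. In the sample pair the largest gap among the 30 tested targets was 0.56 on the log2 scale, for DDB2.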
